A study of Homo sapiens with 24 samples.

Results

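AZIN1, NEIL1, FLNA, COPA, COG3, BLCAP, CYFIP2, IGFBP7 and GLI1 are human transcripts in which adenosine deaminases acting on RNA (ADARs) are known to change an encoded amino acid. The rule that picks these 9 genes, out of 37416 in the count files, rests on that knowledge and uses no measured value, but the set was chosen with earlier results of these data known. The counts give the level of a transcript and hold no information on how much of it was edited. RNA was sequenced from 4 breast cancer cell lines that the study treats as triple-negative, BT549, HCC1806, MDAMB231 and MDAMB468. In each, cells infected with lentivirus expressing a hairpin against ADAR1 (genotype shADAR1) were compared with cells infected with a non-targeting hairpin (shNT). There were 3 libraries per line and hairpin, called biological replicates by the labels, 24 in all. Both arms therefore share the infection of 24 h with protamine sulfate at 10 µg/ml, the 72 h of puromycin at 2 µg/ml, the growth medium and the library kit, which depletes ribosomal RNA from 1 µg of total RNA. The hairpin sequence and the number of hairpins are not given in the sources used here, so an effect of ADAR1 loss and an effect of a single hairpin cannot be told apart.

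ADARs bind double-stranded RNA and deaminate adenosine to inosine, which ribosomes and sequencing enzymes read as guanosine. Most editing by ADAR1, the product of ADAR, falls in inverted repeats of introns and untranslated regions, where it keeps cellular RNA from being sensed as viral. A small set of sites lies in coding sequence, in hairpins that exon and intron often form together, and there editing recodes the protein. ADAR2, the product of ADARB1, edits several of these coding sites, some of them shared with ADAR1. The recoded AZIN1 and GLI1 proteins have been studied in tumours, and edited BLCAP, IGFBP7 and COPA in several cancers.

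The coding sites are shown because they define the group. They were located in GENCODE 29 transcripts (GRCh38) for 8 of the genes, each printed in the sense direction, 5′ to 3′, as 33 bases with the recoded codon in capitals.
NEIL1, AAA to AGA, lysine to arginine, exon 6 of 10, chr15:75353745-75353745, plus strand: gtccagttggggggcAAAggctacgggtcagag
FLNA, CAG to CGG, glutamine to arginine, exon 43 of 48, chrX:154351582-154351582, minus strand: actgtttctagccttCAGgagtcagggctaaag
COPA, ATT to GTT, isoleucine to valine, exon 6 of 33, chr1:160332454-160332454, minus strand: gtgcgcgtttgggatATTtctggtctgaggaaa
COG3, ATT to GTT, isoleucine to valine, exon 17 of 23, chr13:45516236-45516236, plus strand: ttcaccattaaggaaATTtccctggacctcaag
BLCAP, TAT to TGT, tyrosine to cysteine, exon 2 of 2, chr20:37519170-37519170, minus strand: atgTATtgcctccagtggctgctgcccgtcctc
CYFIP2, AAG to GAG, lysine to glutamate, exon 10 of 31, chr5:157309800-157309800, plus strand: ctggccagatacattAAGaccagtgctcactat
IGFBP7 lysine site, AAG to AGG, lysine to arginine, exon 1 of 5, chr4:57110068-57110068, minus strand: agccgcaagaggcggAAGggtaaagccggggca
IGFBP7 arginine site, AGG to GGG, arginine to glycine, exon 1 of 5, chr4:57110120-57110120, minus strand: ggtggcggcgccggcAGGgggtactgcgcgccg
GLI1, AGA to GGA, arginine to glycine, exon 12 of 12, chr12:57470841-57470841, plus strand: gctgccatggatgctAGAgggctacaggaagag
All 9 sites lay in an exon that the count files list for the gene, and none lay under a listed exon of another gene. The coordinate is the edited base, which is the first or the second base of the codon. No site had a guanosine on its 5′ side, the neighbour that ADARs are known to disfavour. The BLCAP site is in the codon right after the start codon, so the window begins at the start of its 264-base coding sequence. COPA and COG3 share the same change, ATT to GTT, in unrelated proteins.

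The hairpin lowered ADAR in every line. ADAR measured 276 to 527 CPM in shNT libraries and 54.6 to 173 CPM in shADAR1 libraries, and the arms did not overlap in any line. CPM here is a count divided by the library's total, in the deposited unit, and scaled further by TMM, a trimmed mean of gene ratios between libraries. The log2 fold changes of shADAR1 over shNT were -2.19 in MDAMB231, -1.94 in BT549, -1.59 in HCC1806 and -1.43 in MDAMB468 (quasi-likelihood F test in edgeR, Benjamini-Hochberg adjusted p from 6.83e-09 to 3.18e-05). Library totals ran from 10370645 to 97218217 counts, with the smallest in MDAMB231 shNT replicate 1. Of the receptors that define the subtype, PGR stayed at or below 0.923 CPM, whereas ESR1 reached 18.0 to 26.8 CPM in HCC1806 and 5.68 to 8.14 CPM in MDAMB468. ERBB2, which encodes HER2, measured 69.8 to 118 CPM. BT549 had at most 0.0221 CPM of the epithelial gene EPCAM, HCC1806 and MDAMB468 at least 245 CPM, and MDAMB231 6.49 to 10.9 CPM. Other epithelial genes placed MDAMB231 differently. KRT8 measured 441 to 558 CPM and KRT18 196 to 293 CPM there, while CDH1 and KRT5 stayed at or below 0.375 CPM. In BT549 all of these stayed at or below 0.894 CPM, and in HCC1806 and MDAMB468 each was at least 182.5 CPM. The 5 markers of leukocytes and endothelium (PTPRC, CD3E, CD79A, PECAM1, CDH5) lay between 0 and 4.89 CPM. ADARB2, which encodes ADAR3, measured 1.72 to 8.72 CPM in HCC1806 and had at most 2 counts in any library of the other lines. ADARB1 was expressed in all lines, at 17.7 to 49.2 CPM, and its average log2 fold change over the lines was -0.18 (SE 0.079, edgeR adjusted p 0.300). With libraries of the same replicate number in a line treated as a pair, in all 4 lines, the adjusted p was 0.00202.

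**Figure D1:**
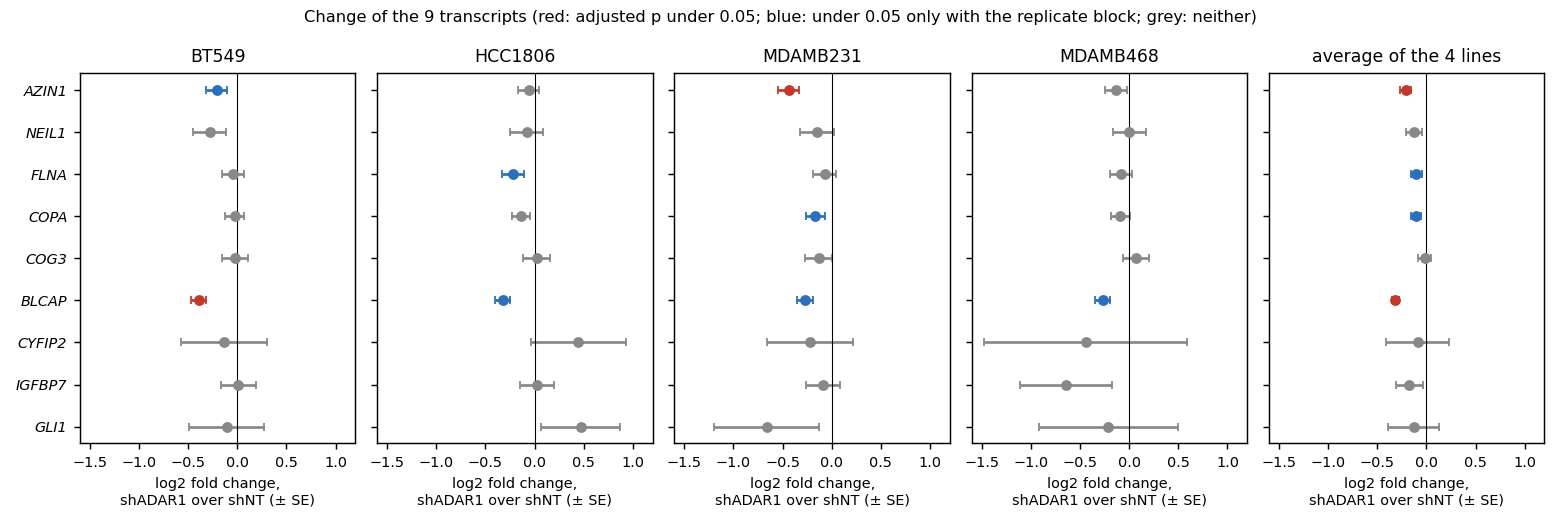
Log2 fold change of shADAR1 over shNT (x axis, ± SE) for the 9 recoded transcripts in each line and for the average of the 4 lines. BLCAP lies between -0.39 and -0.27 in the 4 lines with small errors, whereas CYFIP2, GLI1 and, in MDAMB468, IGFBP7 have wide errors. The errors use a spread estimated for each gene over all 8 groups, not that of the line alone.

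After ADAR1 knockdown, 2 of the 9 transcripts fell on average over the lines: BLCAP by 0.31 and AZIN1 by 0.21 on the log2 scale. None rose. Each library pools the RNA of a culture, so less RNA per cell and fewer expressing cells cannot be told apart. Of all 21352 genes tested, 2.96% were called in either direction at an adjusted p under 0.05, and 1.7% were called lower. The average was below 0 for 9 of the 9 transcripts, while 45.0% of all genes had an average below 0. The 9 averages ran from -0.31 to -0.017, with a median of -0.13 against 0.018 over all genes tested. Each average weights the 4 lines equally, so lines with few counts enter it in full. IGFBP7, at -0.17 on average, was at -0.64 in MDAMB468, on 5 to 12 counts per library. In its other lines it lay between -0.086 and 0.024. The median was the value of GLI1, which had 0 to 8 counts per library in MDAMB468 and 2 to 25 in MDAMB231. The other 7 averages did not pass the test, and for COG3, at -0.017, the SE of 0.068 was larger than the value. In 7 of the 24 fits that each left out 1 library, the count below 0 was 8 of 9, with COG3 or CYFIP2 on the other side of 0. AZIN1, FLNA, COPA and BLCAP were below 0 in all 4 lines, a pattern that 9.41% of all genes showed.

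Within single lines few of the transcripts passed. BT549 had 1 call, BLCAP, where 0.473% of all genes were called. MDAMB231 had 1 call, AZIN1, where 2.01% were called. HCC1806 and MDAMB468 had 0 calls among the 9 by edgeR, with 0.0468% and 0.0375% of all genes called, and 1 of the 9 in each line, BLCAP, had an unadjusted p under 0.05. DESeq2 called 1 of the 9 in BT549 and 1 in HCC1806, both BLCAP, and 2 in MDAMB231, AZIN1 and BLCAP, where it called 1.84%, 0.199% and 5.34% of the genes to which it gave an adjusted p. In MDAMB468 it called 0 of the 8 transcripts with an adjusted p (not GLI1), against 0.332%. Counting instead the transcripts whose 3 shADAR1 libraries did not overlap the 3 shNT libraries gave 3 in BT549 (AZIN1, COPA, BLCAP), 1 in HCC1806 (BLCAP), 2 in MDAMB231 (AZIN1, BLCAP) and 3 in MDAMB468 (AZIN1, BLCAP, IGFBP7), all of them lower. The shares of all genes with shADAR1 below shNT without overlap were 6.43%, 3.2%, 7.01% and 4.3% in the same order. A joint test of whether the change differed between lines called 0 of the 9, against 0.0234% of all genes, with 0 of the 9 at an unadjusted p under 0.05 and 0 called by DESeq2, against 0.835%.

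Same-numbered libraries of the arms passed the cutoff used here for deviating together in BT549, HCC1806 and MDAMB231, which does not establish that they were pairs. With same-numbered libraries as a block in all 4 lines, MDAMB468 included, more of the 9 passed. In BT549 they were AZIN1 and BLCAP, against 5.14% of all genes. In HCC1806 they were FLNA (blocked adjusted p 0.0162) and BLCAP, against 2.1%. In MDAMB231 they were AZIN1, COPA (blocked adjusted p 0.0324) and BLCAP, against 11.4%. For the average, AZIN1, FLNA (blocked adjusted p 0.00580), COPA (0.00565) and BLCAP passed, 4 of 9, where the block called 13.2% of all genes. The joint test of differences between lines then called AZIN1 alone of the 9 (0.0132), against 4.69% of all genes. In MDAMB468 the numbers did not pass the cutoff for pairs, and the block called BLCAP there (0.0115) against 1.66% of all genes. The blocked average and the blocked joint test thus rest in part on MDAMB468 pairs that did not pass that cutoff.

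BLCAP (ENSG00000166619, chromosome 20, 37492472 to 37527931, minus strand) encodes a small protein first described as reduced in invasive bladder cancer. In BT549 it measured 78.8, 74.9 and 71.8 CPM with shNT and 57.5, 55.1 and 59.2 CPM with shADAR1. The lowest control library there was above the highest knockdown library, and the log2 fold change was -0.39 (SE 0.077, edgeR adjusted p 0.0131). In HCC1806, where BLCAP was most abundant, it measured 200.5, 187 and 175 CPM against 149.6, 158 and 143 CPM. Again no library of the arms overlapped, with a log2 fold change of -0.32 (SE 0.077) that edgeR did not call (adjusted p 0.254), the block did (0.00169) and DESeq2 did (0.0120). In MDAMB231 it measured 59.99, 67.9 and 62.0 CPM against 50.9, 55.7 and 50.7 CPM. The log2 fold change there was -0.27 (SE 0.078, edgeR adjusted p 0.0792, blocked 0.00210, DESeq2 0.0128). In MDAMB468 it measured 76.9, 82.8 and 79.6 CPM against 62.2, 70.5 and 65.7 CPM, a log2 fold change of -0.27 (SE 0.077, edgeR adjusted p 0.736). In all 4 lines every shADAR1 library was thus below every shNT library, which held for 70 of the 21352 genes tested, or 0.328%. Ranked by the size of the average fall, BLCAP was 55th of those 70, and ADAR was 1st. On average BLCAP fell by 19.6% (log2 fold change -0.31, SE 0.039, edgeR adjusted p 1.40e-05). All 24 fits without a library kept that call. The BT549 call was lost in 4 of 6 such fits, without shADAR1 replicate 1 or 2 or shNT replicate 1 or 2 (edgeR adjusted p 0.0842 to 0.131). It was also lost with no filter on low counts (0.107). A difference between lines was not called (edgeR adjusted p 1.00). NNAT, on the opposite strand inside the BLCAP span, shares 1.08% of the exon bases of BLCAP, and the average log2 fold change of NNAT was 0.044 at a median of 6.90 CPM.

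**Figure D2:**
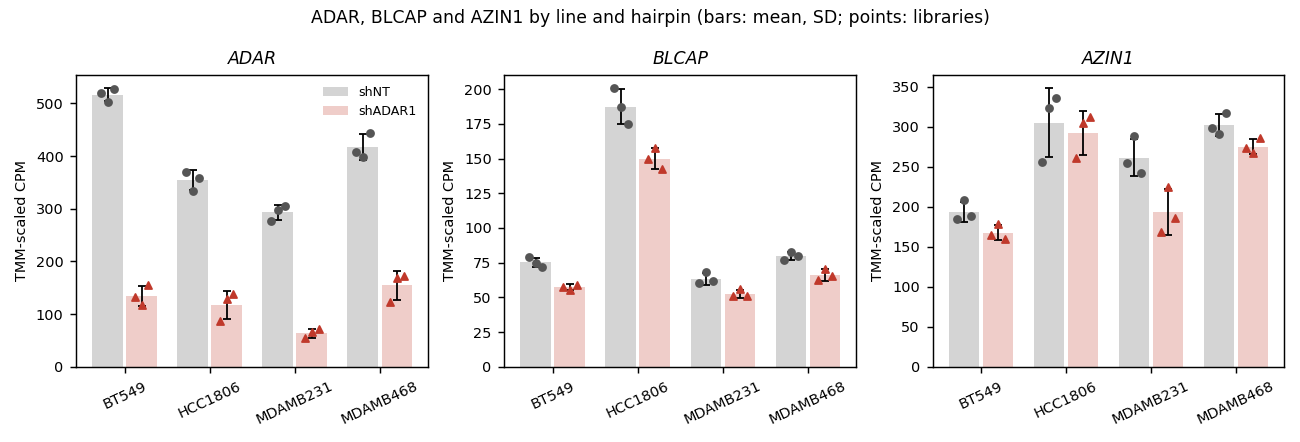
TMM-scaled CPM (y axis, from 0) of ADAR, BLCAP and AZIN1 by line, with bars for the mean of 3 libraries, error bars for the SD and a point for each library. BLCAP with shADAR1 sits below shNT without overlap in all 4 lines, and AZIN1 does so in BT549, MDAMB231 and MDAMB468.

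A 7-base sequence, ATCTTCA, found once in the ADAR transcript, was counted in the longest annotated 3′ UTR of each gene because an earlier look at the same libraries had found it in several genes that fell. Its occurrence among genes that fell is therefore a description of these data and no independent test. BLCAP and ADAR hold it once each in the 3′ UTR, shown here with 10 flanking bases on each side, the sequence in capitals, in sense direction.
BLCAP 3′ UTR, chr20:37518292-37518298, minus strand: ttgtccacaaATCTTCAgtattttctc
ADAR 3′ UTR, chr1:154582424-154582430, minus strand: gcccactgttATCTTCActttctttgt
Only the sense strand of the UTR was searched. Among genes tested with an annotated coding transcript that has a start and a stop codon, 14.1% of 16310 held the sequence. A gene without bases after the stop codon was counted as lacking it. The share was 47.1% of 361 genes called lower on average and 9.84% of 254 genes called higher. Among genes with a 3′ UTR of at least 1000 and under 3000 bases it was 44.2% of those called lower and 14.4% of all. Of the 9 recoded transcripts 4 held it, once each: AZIN1, COG3, BLCAP and CYFIP2. Their average log2 fold changes were -0.21, -0.017, -0.31 and -0.089, so the 2 that fell held it, and so did COG3 and CYFIP2, which did not pass. The 5 without it had averages between -0.17 and -0.10. The lowest of these, of IGFBP7, owed most to MDAMB468, where IGFBP7 had 5 to 12 counts per library. Over all genes the median average was -0.015 with the sequence (2296 genes) and 0.020 without it (14014 genes). Its part in the fall of BLCAP and AZIN1 was not tested.

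**Figure D3:**
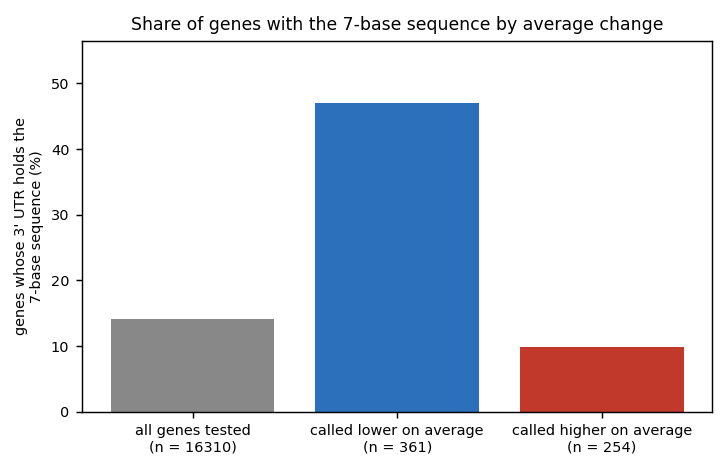
Percent of genes (y axis, from 0) whose longest 3′ UTR holds the 7-base sequence, for all genes tested with an annotated coding transcript and for those called higher or lower on average after ADAR1 knockdown. The share was 14.1% of all genes, 47.1% of genes called lower and 9.84% of genes called higher. The sequence was picked from genes that fell in the same libraries, so the shares describe these data and test nothing.

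AZIN1 (ENSG00000155096, chromosome 8, 102826357 to 102893864, minus strand) encodes antizyme inhibitor, which binds antizyme and so spares ornithine decarboxylase, the enzyme that commits ornithine to polyamines. Editing changes a serine codon to glycine. MAILR, a gene on the opposite strand at a median of 1.07 CPM, shares 5.04% of the exon bases of AZIN1. In MDAMB231 AZIN1 measured 254, 288 and 242.4 CPM with shNT and 168, 225 and 186 CPM with shADAR1. Every knockdown library was below every control library, and AZIN1 fell by 26.2% (log2 fold change -0.44, SE 0.11, edgeR adjusted p 0.0322). That call was lost on the line's own 6 libraries (adjusted p 0.162) and without shADAR1 replicate 1 or 3 or shNT replicate 1 or 2 (0.0709 to 0.265). In BT549 it measured 185, 208 and 189 CPM against 164.4, 178 and 159.8 CPM, which did not overlap (log2 fold change -0.21, SE 0.11, edgeR adjusted p 0.828, blocked 0.0191). In HCC1806 the arms overlapped, at 256, 323 and 336 CPM against 261, 304 and 312 CPM (log2 fold change -0.061, SE 0.11). In MDAMB468 the arms did not overlap, at 298, 291 and 317 CPM against 273, 267 and 286 CPM (-0.13, SE 0.11, edgeR adjusted p 1.00). The change was thus largest in MDAMB231 in these values, but whether lines differed had an edgeR adjusted p, in the joint test, of 1.00 without the block and 0.0132 with it. The average was -0.21 (SE 0.054, edgeR adjusted p 0.0317). It was lost as a call in 13 of the 24 fits without a library, at adjusted p 0.0524 to 0.0789, while the value stayed between -0.24 and -0.19 in all 24. Those fits left out, of the shADAR1 arm, BT549 replicates 1 and 3, HCC1806 replicate 1, MDAMB231 replicates 1 and 3 and MDAMB468 replicates 1 and 2. Of the shNT arm they left out BT549 replicate 2, HCC1806 replicates 2 and 3, MDAMB231 replicate 2 and MDAMB468 replicates 1 and 3.

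NEIL1 (ENSG00000140398, chromosome 15, 75346955 to 75357114, plus strand) encodes a glycosylase that excises oxidised bases in base excision repair. It was a low transcript, at 114 to 974 counts per library. In BT549 it measured 5.36, 6.67 and 6.93 CPM with shNT and 4.91, 4.51 and 6.20 CPM with shADAR1, with overlapping arms (log2 fold change -0.28, SE 0.17, edgeR adjusted p 0.936). The arms overlapped in the other lines too, with log2 fold changes of -0.079 in HCC1806, -0.15 in MDAMB231 and 0.00051 in MDAMB468. On the opposite strand MAN2C1 shares 26.4% of the exon bases of NEIL1, and it is more abundant, at a median of 40.4 CPM. Whether counting used strand is not given in the sources used here, so reads of the pair cannot be told apart. The log2 fold changes of MAN2C1 were -0.21, -0.13, -0.12 and -0.0049 in BT549, HCC1806, MDAMB231 and MDAMB468, with none called. The genes that overlap exons of COPA, COG3, CYFIP2 and GLI1 (NCSTN, ERICH6B, ADAM19 and ARHGAP9) share at most 2.74% of them.

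FLNA and CYFIP2 act on actin. FLNA (ENSG00000196924, chromosome X, 154348524 to 154374638, minus strand), filamin A, cross-links actin filaments and anchors membrane proteins, and its edited codon lies in a late repeat of the rod. In HCC1806 FLNA measured 2691, 3454 and 3162 CPM with shNT and 2327, 3126 and 2552 CPM with shADAR1. Each knockdown library was below the same-numbered control library while the arms overlapped, and the log2 fold change of -0.22 (SE 0.11) had an edgeR adjusted p of 1.00, or 0.0162 with the block. FLNA ran from 4736 to 6608 CPM in BT549, from 3282 to 3728 CPM in MDAMB231 and from 4640.4 to 5274 CPM in MDAMB468, over both arms. The arms overlapped each time, and the log2 fold changes were -0.042, -0.073 and -0.080 with SEs of 0.11. CYFIP2 (ENSG00000055163, chromosome 5, 157266079 to 157395598, plus strand) belongs to the WAVE complex, which turns on branched actin assembly downstream of Rac, and binds the fragile X protein FMRP. In MDAMB231 CYFIP2 measured 6.92, 27.1 and 11.8 CPM with shNT and 7.81, 22.7 and 9.16 CPM with shADAR1. Replicate 2 was the highest library of both arms, at 27.1 and 22.7 CPM, and without shNT replicate 2 the log2 fold change moved from -0.22 to 0.48. In BT549 it measured 9.87, 8.69 and 8.26 CPM against 7.84, 8.53 and 8.05 CPM, and in HCC1806 0.967, 1.71 and 1.80 CPM against 1.59, 1.70 and 2.89 CPM. These arms overlapped, and the log2 fold changes of -0.13 and 0.45 had SEs of 0.43 and 0.48. Both SEs rest on the spread of CYFIP2 over all 8 groups. In BT549 alone the SDs were 0.832 CPM with shNT and 0.352 CPM with shADAR1. MDAMB468 had 1 to 10 counts of CYFIP2 per library.

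COPA and COG3 serve the Golgi. COPA (ENSG00000122218, chromosome 1, 160289273 to 160343400, minus strand) is the alpha subunit of the COPI coat, which carries cargo back to the endoplasmic reticulum. In MDAMB231 COPA measured 208, 223 and 224 CPM with shNT and 179, 208 and 195 CPM with shADAR1. Only the highest knockdown library reached the lowest control library, and the log2 fold change of -0.17 (SE 0.10) had an edgeR adjusted p of 0.554, or 0.0324 with the block. In BT549 the arms did not overlap, at 495, 488 and 484 CPM against 481, 483 and 476 CPM, yet they differed by -0.026 on the log2 scale (SE 0.10, edgeR adjusted p 1.00). That SE rests on the spread of COPA over all 8 groups. In BT549 alone the SDs were 5.27 CPM with shNT and 3.65 CPM with shADAR1. HCC1806 and MDAMB468 had log2 fold changes of -0.14 and -0.090, with SEs of 0.096. COG3 (ENSG00000136152, chromosome 13, 45464898 to 45536630, plus strand) is a subunit of the conserved oligomeric Golgi complex, a tether for vesicles moving within the Golgi. Its arms overlapped in every line, and its log2 fold changes were -0.13 in MDAMB231, -0.022 in BT549, 0.020 in HCC1806 and 0.070 in MDAMB468, each with an SE of 0.13 or 0.14. COG3 was the member with the smallest average change, and it reversed sign when single libraries were left out.

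IGFBP7 and GLI1 stand at the outside and the inside end of growth signalling. IGFBP7 (ENSG00000163453, chromosome 4, 57030773 to 57110385, minus strand) is a secreted protein that binds insulin-like growth factors and insulin. In MDAMB231 it measured 190.3, 155 and 190.2 CPM with shNT and 185, 132 and 187 CPM with shADAR1, in HCC1806 66.1, 64.4 and 46.1 against 67.7, 66.9 and 44.9 CPM, and in BT549 25.7, 24.1 and 30.1 against 23.5, 23.9 and 32.99 CPM. In each of these lines the replicates of the arms moved in step (replicate 2 was lowest in both arms of MDAMB231, replicate 3 lowest in both of HCC1806 and highest in both of BT549), and the log2 fold changes lay between -0.086 and 0.024. In MDAMB468 IGFBP7 had 12, 12 and 12 counts with shNT and 5, 10 and 12 with shADAR1. The scaled values there did not overlap, but with so few counts the log2 fold change of -0.64 had an SE of 0.47 (edgeR adjusted p 1.00). POLR2B, a more abundant gene on the opposite strand, at a median of 121 CPM, shares 14.0% of the exon bases of IGFBP7. GLI1 (ENSG00000111087, chromosome 12, 57460135 to 57472262, plus strand) is the zinc-finger factor through which Hedgehog signalling activates its targets, and a target itself. In BT549 it measured 6.18, 5.13 and 7.49 CPM with shNT and 4.19, 4.27 and 8.98 CPM with shADAR1. The knockdown arm held both the lowest and the highest library, and the log2 fold change of -0.11 had an SE of 0.38. In HCC1806 it measured 2.42, 2.23 and 1.68 CPM against 3.80, 2.72 and 2.23 CPM, a log2 fold change of 0.47 (SE 0.40, edgeR adjusted p 1.00). In MDAMB231 GLI1 had 2 to 25 counts per library and a log2 fold change of -0.66 (SE 0.53). In MDAMB468 replicate 1 of each arm had 0 counts of GLI1, which allows up to 0.123 CPM in each (3 counts, for counting error only), and the other 4 libraries had 8 counts each.

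**Figure D4:**
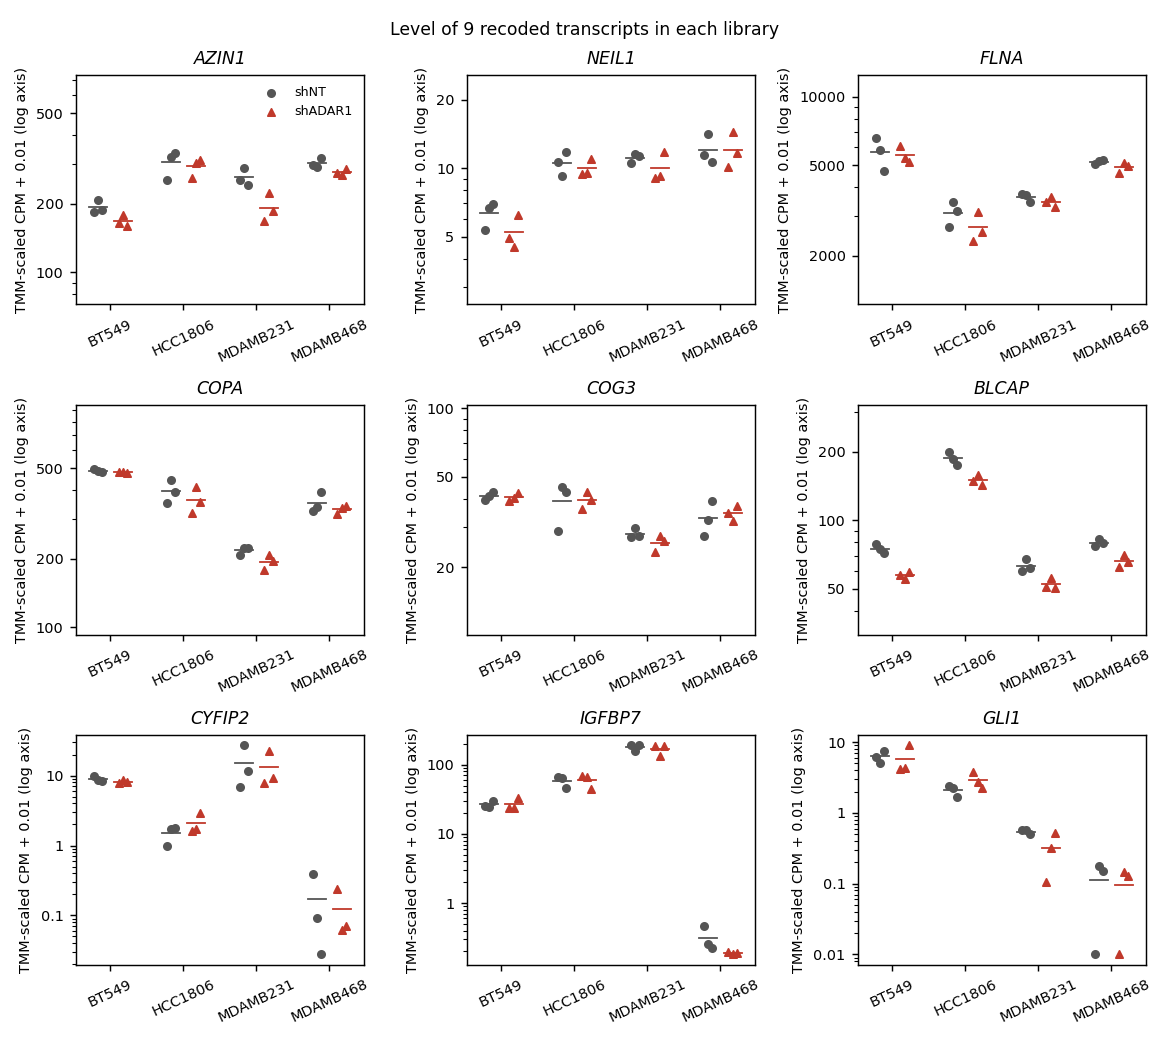
TMM-scaled CPM plus 0.01 (y axis, log scale, its range set for each gene) of the 9 recoded transcripts in each of the 24 libraries, by line. Points are libraries and horizontal lines are means of 3 libraries, with circles for shNT and triangles for shADAR1. IGFBP7, CYFIP2 and GLI1 differ between lines by orders of magnitude.

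The transcripts also differed between lines. With the non-targeting hairpin all 9 transcripts differed among the 4 lines in the joint test, but so did 85.9% of all genes tested. IGFBP7 had the widest range: 179 ± 20.1 CPM (SD, n = 3) in MDAMB231, 58.8 ± 11.1 in HCC1806, 26.6 ± 3.14 in BT549 and 0.305 ± 0.131 in MDAMB468. Every neighbouring pair in that order differed (edgeR adjusted p at most 5.76e-06), and the log2 difference of MDAMB468 minus MDAMB231 was -9.31. GLI1 ran in the order BT549 (6.27 ± 1.18 CPM), HCC1806 (2.11 ± 0.383), MDAMB231 (0.532 ± 0.0398) and MDAMB468 (0.102 ± 0.0895). Each neighbouring pair differed (edgeR adjusted p 0.00160, 0.000910 and 0.00373). CYFIP2 was highest in MDAMB231 (15.3 ± 10.5 CPM) and BT549 (8.94 ± 0.832), which did not differ beyond their spread (edgeR adjusted p 0.127), then HCC1806 (1.49 ± 0.455) and MDAMB468 (0.160 ± 0.192). BLCAP was highest in HCC1806 (187 ± 12.7 CPM), above MDAMB468 (79.8 ± 2.93) and BT549 (75.1 ± 3.48), which did not differ beyond their spread (edgeR adjusted p 0.3498), and MDAMB231 was lowest (63.3 ± 4.12). The difference between HCC1806 and the next line, -1.23 on the log2 scale for MDAMB468 minus HCC1806, was larger than any change of BLCAP with the hairpin. Pairwise shares of all genes called between the shNT groups were 63.5% (HCC1806 and BT549), 56.5% (MDAMB231 and BT549), 59.0% (MDAMB231 and HCC1806), 61.0% (MDAMB468 and BT549), 62.9% (MDAMB468 and HCC1806) and 61.8% (MDAMB468 and MDAMB231).

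The other 5 transcripts were expressed in all 4 lines. FLNA was highest in BT549 (5736 ± 942 CPM) and MDAMB468 (5199 ± 95.3), which did not differ beyond their spread (edgeR adjusted p 0.297). MDAMB231 (3628 ± 158) and HCC1806 (3102 ± 385) followed and were not called different (edgeR adjusted p 0.0947). COPA ran from 489 ± 5.27 CPM in BT549 over 398 ± 45.9 in HCC1806 and 352 ± 35.8 in MDAMB468, a pair that did not differ beyond its spread (0.114), to 218 ± 9.09 in MDAMB231. COG3 spanned the least, from 41.2 ± 1.76 CPM in BT549 to 28.1 ± 1.45 in MDAMB231, and no neighbouring pair in the order BT549, HCC1806, MDAMB468 and MDAMB231 differed beyond its spread (edgeR adjusted p 0.628, 0.126 and 0.153). AZIN1 and NEIL1 were both lowest in BT549, at 194 ± 12.5 and 6.32 ± 0.844 CPM. Their highest lines, HCC1806 for AZIN1 (305 ± 43.1) and MDAMB468 for NEIL1 (12.1 ± 1.80), did not differ from the next beyond their spread (edgeR adjusted p 0.932 and 0.590). Per length, in the deposited RPKM, the median level over 24 libraries was 409 for FLNA, 58.9 for COPA, 40.0 for AZIN1, 19.96 for IGFBP7, 9.06 for BLCAP, 6.19 for COG3 and 1.51 for NEIL1. CYFIP2 and GLI1 stood lowest, at 0.477 and 0.263 RPKM.

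For each transcript the genes with the most similar log2 CPM over the 24 libraries were also listed, as a description. All 18 had Pearson's r of at least 0.917, but libraries of a line share their origin, and r fell to between 0.086 and 0.83 once each line's mean was subtracted. For BLCAP they were JAG2 (r 0.97, 0.43 after subtraction) and NIPA2 (0.96, 0.73). For AZIN1 they were GMDS (0.94, 0.80) and AAMP (0.93, 0.83), which kept the highest values after subtraction. For IGFBP7 they were MXRA7 (0.99, 0.086) and NAV3 (0.99, 0.096), the lowest values after subtraction together with COL4A5 for COPA (0.097). The others, with r of 0.917 to 0.977, were PLEKHH1 and KAZN for NEIL1, METTL13 and REX1BD for FLNA, ZNF518B for COPA, ZNF844 and UTP14C for COG3, PHF19 and SLC39A10 for CYFIP2, and PDPR and CTDNEP1 for GLI1.

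Transcripts with other known editing sites were set beside these. Of 26 further transcripts known for recoded sites, many of them neuronal channels and receptors, 24 were tested and 0 were called on average by edgeR, against 2.96% of all genes, with 4 at an unadjusted p under 0.05. Their median average was 0.071, and 10 of 24 were below 0. Several had few reads, such as GRIA4 and CADPS with at most 26 and 17 counts in any library. The signs of such transcripts are uncertain, and a change in them could hardly be called. GIPC1, an adaptor of receptor trafficking, and SON, a splicing factor, had the smallest p, with averages of 0.17 (SE 0.053, edgeR adjusted p 0.0835) and -0.11 (SE 0.041, edgeR adjusted p 0.216). DESeq2 called 1 of the 14 to which it gave an adjusted p, SON, against 8.26% of all genes. The replicate block called 6 of the 24, against 13.2% of all genes, of which 4 were higher, among them GIPC1, and 2 lower, CDK13 and SON. Within lines edgeR called 0 of the 24, against 0.473%, 0.0468%, 2.01% and 0.0375% of all genes in BT549, HCC1806, MDAMB231 and MDAMB468. Of the 24, 1 in HCC1806 and 4 in MDAMB231 had an unadjusted p under 0.05. DESeq2 also called 0 within lines, of 18, 23, 18 and 14 with an adjusted p in the same order. Of all genes with an adjusted p it called 1.84%, 0.199%, 5.34% and 0.332%. The block called 2 in BT549, both higher, against 5.14% of all genes. In MDAMB231 it called 3 (TMEM63B and GIPC1 higher, CDK13 lower), against 11.4%. In HCC1806 and MDAMB468 it called 0, against 2.1% and 1.66%.

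Of 18 transcripts known for edited repeats in the 3′ UTR, 2 were called on average by edgeR, against 2.96% of all genes, with a median of -0.0040 and 10 of 18 below 0. MDM2, the ubiquitin ligase that restrains p53, rose by 0.70 (SE 0.060, edgeR adjusted p 5.93e-08). MAVS, the mitochondrial adaptor of RNA sensing, fell by 0.19 (SE 0.045, edgeR adjusted p 0.0200). DESeq2 called 3 of the 15 to which it gave an adjusted p, adding GSR, against 8.26% of all genes with one. The block called 4 of the 18, adding GSR and F11R, both lower, against 13.2% of all genes. In MDAMB231 edgeR called 3 of the 18, against 2.01% of all genes. GSR, glutathione reductase, measured 43.0, 50.2 and 44.0 CPM there with shNT and 20.8, 38.1 and 28.2 CPM with shADAR1, and fell by 0.65 (edgeR adjusted p 0.00860). MAVS also fell in that line, by 0.34 (edgeR adjusted p 0.0484), and MDM2 rose by 0.94 (edgeR adjusted p 4.78e-05). DESeq2 called the same 3 genes in MDAMB231, against 5.34% of all genes with an adjusted p. The block called 5, adding F11R (lower) and PAICS (higher), against 11.4% of all genes. In BT549 edgeR called MDM2 alone, against 0.473% of all genes, and MDM2 rose by 0.93 (edgeR adjusted p 0.000209). MAVS there, at -0.31, had an adjusted p of 0.185 by edgeR, 0.0106 by DESeq2 and 0.000913 with the block. In MDAMB468 MDM2 was at 0.56, with an adjusted p of 0.132 by edgeR, 0.0149 by DESeq2 and 0.000867 with the block. In HCC1806 it was at 0.38, with an adjusted p of 0.684 by edgeR and 0.0199 with the block, and DESeq2 did not call it.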

How the data were processed

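Read counts per gene were deposited for 24 libraries, with CPM and RPKM computed by the authors from those counts and the listed exon length, per the file headers. Recomputing the deposited CPM and RPKM from the counts gave the same values (largest difference 4.73e-11 and 5.46e-11). The submitters' processing notes name bcl2fastq, STAR, Subread, featureCounts and edgeR. The genome build, the annotation and strand use are not given in the sources used here. Of the 37416 genes listed, 34265 are in GENCODE 29 (GRCh38). Start and end equal that release for 31297 of the 34265, and for 7 of the 9 transcripts (not COPA and CYFIP2).

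The deposited counts were tested with edgeR 4.0.16 in R 4.3.3 (quasi-likelihood test, 2-sided, TMM, filterByExpr, 21352 genes kept). A single model had a coefficient for each of 8 groups, and p-values were adjusted by Benjamini-Hochberg over all genes, with a threshold of 0.05. All 9 transcripts passed the filter. An SE is the fold change divided by the root of the F statistic. With 3 libraries per group, p-values measure the spread between samples labelled as biological replicates. That spread was estimated for each gene over all 8 groups together. An SE or p-value for a line therefore does not measure the spread of that line alone. The model was tested on simulated counts. The named genes are the 9 transcripts, ADAR, members of the comparison lists past the threshold or with the 2 smallest p in the average, the 2 genes most like each transcript in log2 CPM (mean of at least 2), and overlapping genes. The members, the lists and the 7-base sequence were chosen with earlier results of these data known. Sites come from GENCODE 29 transcripts.

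The replicate numbers were read as pairs where every pair's correlation of deviations was over 0.1. This held in BT549 (0.139, 0.158 and 0.250), HCC1806 (0.242, 0.332 and 0.443) and MDAMB231 (0.204, 0.348 and 0.149), but not in MDAMB468 (0.165, 0.166 and 0.0651). Only the value of 0.0651 set MDAMB468 apart, as 0.165 and 0.166 were above 0.139 and 0.158 in BT549. Correlations of differently numbered libraries are not given here for comparison. The cutoff therefore cannot establish pairs in BT549 or their absence in MDAMB468. The alternatives were RLE and upper-quartile scaling, no filter, a minimum of 10 counts in every library, the replicate block, a line's own 6 libraries, DESeq2 1.42.0 and leaving out each library. The values of 1 transcript of the comparison lists are not reported here.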

Additional observations from a re-analysis of the deposited data

How the results depend on the processing

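The number of recoded transcripts called changed with some settings. The replicate block raised it from 1 to 3 in MDAMB231, 1 to 2 in BT549, 0 to 2 in HCC1806, 0 to 1 in MDAMB468, 2 to 4 for the average and 0 to 1 for differences between lines, and no call was lost with it. DESeq2 called 1 in HCC1806 and 2 in MDAMB231, no filter on low counts 0 in BT549, the 10-count minimum 2 in MDAMB231 (of 6 tested), and the line's own 6 libraries 0 in MDAMB231. With a library left out the counts ran from 0 to 1 in BT549 and MDAMB231, stayed at 0 in HCC1806 and MDAMB468, and ran from 1 to 2 for the average. For differences between lines they stayed at 0, and for levels among shNT groups at 9.

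Values near 0 changed sign. NEIL1 in MDAMB468 was -0.0079 with RLE, -0.019 with upper-quartile scaling, -0.0023 with the 10-count minimum, -0.015 on the line's own libraries and -0.0060 with DESeq2. IGFBP7 in BT549 was -0.0074 with RLE, -0.00091 with the replicate block, -0.0046 on the line's own libraries and -0.0077 with DESeq2. With a library left out, log2 values ran from -0.17 to 0.016 for AZIN1 in HCC1806. For NEIL1 they ran from -0.17 to 0.015 in HCC1806 and -0.15 to 0.12 in MDAMB468. For FLNA they ran from -0.16 to 0.073 in BT549. For COG3 they ran from -0.055 to 0.0093 in BT549, -0.15 to 0.14 in HCC1806, -0.038 to 0.21 in MDAMB468 and -0.058 to 0.018 on average. For CYFIP2 they ran from -0.87 to 0.48 in MDAMB231, -1.14 to 0.85 in MDAMB468 and -0.26 to 0.24 on average. For IGFBP7 they ran from -0.16 to 0.11 in BT549, -0.12 to 0.22 in HCC1806 and -0.18 to 0.059 in MDAMB231. For GLI1 they ran from -0.56 to 0.081 in BT549 and -0.58 to 0.14 in MDAMB468.

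Over all 21352 genes, the replicate block called 2437 in MDAMB231, 1098 in BT549, 448 in HCC1806, 354 in MDAMB468, 2820 on average and 1002 for differences between lines, against 429, 101, 10, 8, 632 and 5. DESeq2 called 786, 279, 40, 42, 1045 and 123, of 14725, 15139, 20107, 12658, 12658 and 14725 genes with an adjusted p. The cause was not tested. The line's own libraries called 117 of 16711 genes in MDAMB231, 226 of 16895 in BT549, 0 of 17657 in HCC1806 and 21 of 17236 in MDAMB468, with fewer samples in the fit. No filter, with 31788 genes tested, called 393 in MDAMB231, 84 in BT549, 18 in HCC1806, 10 in MDAMB468, 549 on average and 22 for differences. The 10-count minimum, with 11794 genes tested, called 588, 185, 10, 16, 839 and 25 in the same order. Low counts limit CYFIP2, IGFBP7 and GLI1 in MDAMB468 and GLI1 in MDAMB231.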
